A study of Mus musculus with 16 samples.

Results

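Prelimbic cortex (PL) neurons that project to the nucleus accumbens (NAc) were profiled by viral translating ribosome affinity purification (vTRAP), and their polysome RNA is described here against the RNA of the tissue around them. The genes described are all those with a mean normalized count of at least 50 over the 6 PL-NAc libraries. They number 12061 of the 39017 genes in the PL-NAc table, and they hold 99.4% of its summed mean counts. Across the 3 projections of the series, 12466 genes reach that mean in at least 1 projection. The number is 12228 in the projection to the basolateral amygdala (BLA) and 12314 in that to the ventral tegmental area (VTA).

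The mice were C57BL/6J, an inbred strain. AAV-IV-GFPL10, an adeno-associated virus that delivers a ribosomal protein fused to green fluorescent protein (GFP), was injected in PL. CAV-Cre, a canine adenovirus that carries Cre recombinase and travels back along axons, was injected in NAc. The IP group is RNA recovered from GFP-tagged polysomes with anti-GFP beads (3 libraries), and the Input group is the RNA before this pull-down (3 libraries). Both groups carry both viruses, so no group is free of them, and a neuron carries the tag only where both viruses reached it. The age and sex of the mice, the number of animals behind a library and the promoter of the tag are not given in the labels. Nothing in the labels says that replicates are different animals, so p-values cover only the spread among these libraries, and that spread may be technical. The authors' deposited table gives a mean per gene and a contrast, with no value per library, so the group levels printed below as estimated counts were derived from the mean and the fold change.

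In such a pull-down an mRNA is recovered when a tagged ribosome sits on it. RNAs that stay in the nucleus, RNAs translated inside mitochondria and RNAs of cells that lack the tag are therefore left behind. The neurons that send axons from the prelimbic cortex to the accumbens are pyramidal cells that release glutamate. They belong to a pathway studied for its part in reward seeking and in the control of motivated behaviour.

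Calls of higher or lower rest on the adjusted p of the authors' deposited table, with 0.05 as the limit. By this rule 3738 genes (31.0% of 12061) were higher in the IP, 2891 genes (24.0%) were lower and 5432 were not called. By fold change the losses were larger than the gains. At least 2-fold gains numbered 230 (1.91%) and at least 2-fold losses 1039 (8.61%). The median log2 fold change was 0.48 among genes called higher and -0.76 among those called lower, with a median standard error of 0.12 over all 12061. Genes called higher had a median mean count of 1152, those called lower 291. In estimated counts at the deposited zero point the gains were larger. Genes called higher gained 3199815 in sum while those called lower fell by 1138051. Over all 12061 genes the estimated sums were 14288987 in Input and 16406774 in the IP. These sums are not given under another zero point. The balance of directions rests on where 0 is set. The median log2 fold change of the 12061 genes was 0.059, and that of the 3617 genes with a mean over 1000 was 0.24. As deposited, 56.4% of calls were gains. With the median of all genes taken as 0, 3242 genes were higher and 3272 lower (49.8% gains), and with the median of genes with a mean over 1000 taken as 0, 1863 were higher and 4879 lower (27.6% gains). The latter zero point lies 0.24 above the deposited one and 0.18 above the median of all genes. Values below are as deposited, and the calls under that last choice, called the second centring, stand beside the counts of each gene list. Genes just below the minimum mean were Tmem132c (mean 49.986) and Slfn2 (49.987), and those just above it were Sh3pxd2a (50.022) and Rhbdl1 (50.085).

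**Figure D1:**
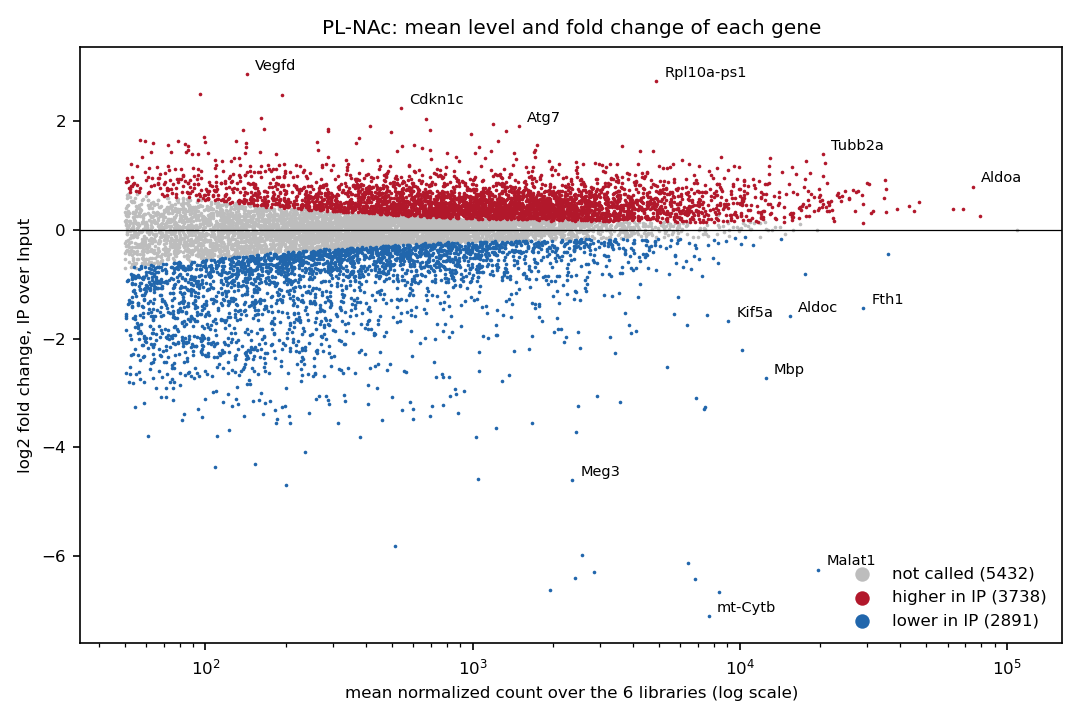
Mean normalized count over the 6 libraries (log axis) against the log2 fold change of IP over Input for the 12061 genes, with 3738 genes called higher in red, 2891 called lower in blue and 5432 not called in grey. The red points crowd toward high means, and the blue points reach down to a log2 fold change of -7.11.

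The labelled cell type was checked against markers. The sign of the deposited fold change was itself read from glial and mitochondrial transcripts, so their losses are a description and no independent check. All 6 markers of excitatory neurons were higher in the IP, with a summed estimated level at 148% of Input. Their lowest log2 fold change, 0.17, lies below the zero point of the second centring (0.24). Calls under that centring are not given for markers. Of all genes 31.0% were called higher, and 69.7% in the highest decile by mean count. Of 5 layer 5 markers, Fezf2, Tnnc1 and Dkkl1 were higher, and of Bcl11b and Etv1 1 was lower and 1 was not called. Fezf2, a transcription factor of deep-layer projection neurons, was 2.96-fold higher (log2 fold change 1.57 ± 0.082 (SE) in the authors' deposited table). Tnnc1 and Dkkl1 are also among the 20 largest gains, and the markers were listed with earlier results known. These 2 are therefore no independent check, and in the VTA projection they stood at -2.48 and -0.05 on the log2 scale. Of 7 markers of inhibitory neurons, 6 were lower and Sst, a peptide of an interneuron class, was higher (0.26 ± 0.089 on the log2 scale in the authors' deposited table). The summed level of these 7 stood at 46.9% of Input. All 5 astrocyte markers, all 5 oligodendrocyte markers and all 5 microglial markers were lower, at 26.6%, 13.7% and 21.2% of Input in sum. Only 2 of 5 endothelial and mural markers reached a mean of 50, and both were lower. Of 5 genes of striatal neurons, 3 were lower and 2 were not called, and their summed level was 53.6% of Input. The table cannot show whether a marker was at 0 in any IP library. Fewer cells of a type and less RNA per cell cannot be told apart in such tissue samples.

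The steepest gains included secreted signals, an inhibitor of the cell cycle and a metabolic enzyme. Vegfd, a growth factor of lymphatic vessels, went from an estimated 34.4 normalized counts in Input to 251 in the IP, a log2 fold change of 2.87 ± 0.23 in the authors' deposited table (adjusted p 4.8e-34). Nnmt, which methylates nicotinamide, went from 28.6 to 162 estimated counts (2.51 ± 0.26 on the log2 scale, authors' deposited table). Wfdc18, a small secreted protein with a whey acidic domain, went from 58.6 to 329 (2.49 ± 0.20, authors' deposited table). These 3 transcripts are scarce in Input and were all over 5-fold more abundant in the IP. Cdkn1c, an inhibitor of cyclin-dependent kinases, rose 4.73-fold (2.24 ± 0.13, authors' deposited table). Rspo2, which amplifies Wnt signalling, rose 3.22-fold (1.69 ± 0.14, authors' deposited table), and Grp, a peptide that acts on bombesin receptors, rose 3.65-fold (1.87 ± 0.20, authors' deposited table). Rpl10a-ps1, a pseudogene copy of a ribosomal protein gene, stood at 8494 estimated counts in the IP against 1269.7 in Input (2.74 ± 0.069, authors' deposited table). The tag delivered by the virus is itself a ribosomal protein sequence. Whether its reads were counted at this pseudogene was not tested.

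The other 13 of the 20 largest gains had estimated Input levels from 46.4 (Igha) to 626 (Atg7) counts. Atg7, an enzyme that starts the lipidation step of autophagy, rose 3.76-fold (1.91 ± 0.083, authors' deposited table). Sh2d3c, a signalling adaptor, rose 3.87-fold (1.95 ± 0.089, authors' deposited table) and Ubr3, a ubiquitin ligase, 3.52-fold (1.82 ± 0.091, authors' deposited table). Nol8, a nucleolar protein, rose 4.13-fold (2.05 ± 0.12, authors' deposited table). These 4 had estimated Input levels of at least 262 counts, and standard errors of 0.12 or less. Tnnc1, the calcium-binding troponin of slow muscle and heart, rose 3.58-fold (1.84 ± 0.11, authors' deposited table), and Dkkl1, a relative of the Dickkopf proteins, 3.42-fold (1.77 ± 0.096, authors' deposited table); both were on the list of layer 5 markers used for the check above. Pcsk4, a proprotein convertase, rose 3.51-fold (1.81 ± 0.12, authors' deposited table), Pik3r6, a regulatory subunit of a phosphoinositide kinase, 3.64-fold (1.86 ± 0.16, authors' deposited table), and Slc26a4, the anion exchanger pendrin, 3.57-fold (1.84 ± 0.21, authors' deposited table). Ngb, the oxygen-binding globin of neurons, rose 3.55-fold (1.83 ± 0.15, authors' deposited table). Blood globins moved the other way. Hbb-bs fell to 5.90% of Input, Hba-a1 to 7.26% and Hba-a2 to 8.85%, and reads of the latter pair of near-identical genes may be split by the counting. The noncoding host transcripts Dancr (2.06 ± 0.20, authors' deposited table) and Snhg4 (1.90 ± 0.13, authors' deposited table) and the immunoglobulin constant gene Igha (1.71 ± 0.24, authors' deposited table) complete the 20 largest gains.

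Among the 20 largest losses outside the mitochondrial genome, long noncoding RNAs led. Malat1, a RNA of nuclear speckles, fell from an estimated 38841 counts to 510.2 (-6.25 ± 0.15, authors' deposited table). 9530059O14Rik, a long noncoding RNA, fell to 3.84% of Input, Meg3 to 4.12%, Neat1, the scaffold of paraspeckles, to 4.83% and Mir124a-1hg, a microRNA host transcript, to 5.06%. Cdr1 fell to 4.19% of Input, and all 1554 exonic bases of that gene overlap an exon of C230004F18Rik on the opposite strand, so without strand the reads of this pair cannot be told apart. The kit used does not mark strand. Many of the lost protein-coding transcripts are known from glia. Selenop, the plasma carrier of selenium, fell to 7.11% of Input (-3.81 ± 0.12, authors' deposited table), and Litaf, an endosomal membrane protein, to 7.13% (-3.81 ± 0.17, authors' deposited table). The myelin and oligodendrocyte genes Olig1, Pllp, Opalin and Mog stood at 8.57%, 8.54%, 8.57% and 8.90% of Input. Fam107a, an actin regulator, stood at 7.61%, Plekhf1, an endosomal protein, at 7.82% and Pdlim2, an actin-linked adaptor, at 8.56%. Calb2, the calcium buffer calretinin of an interneuron class, had a log2 fold change of -3.64 ± 0.11 in the authors' deposited table. The remaining 1 of the 20 has no symbol in the files.

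**Figure D2:**
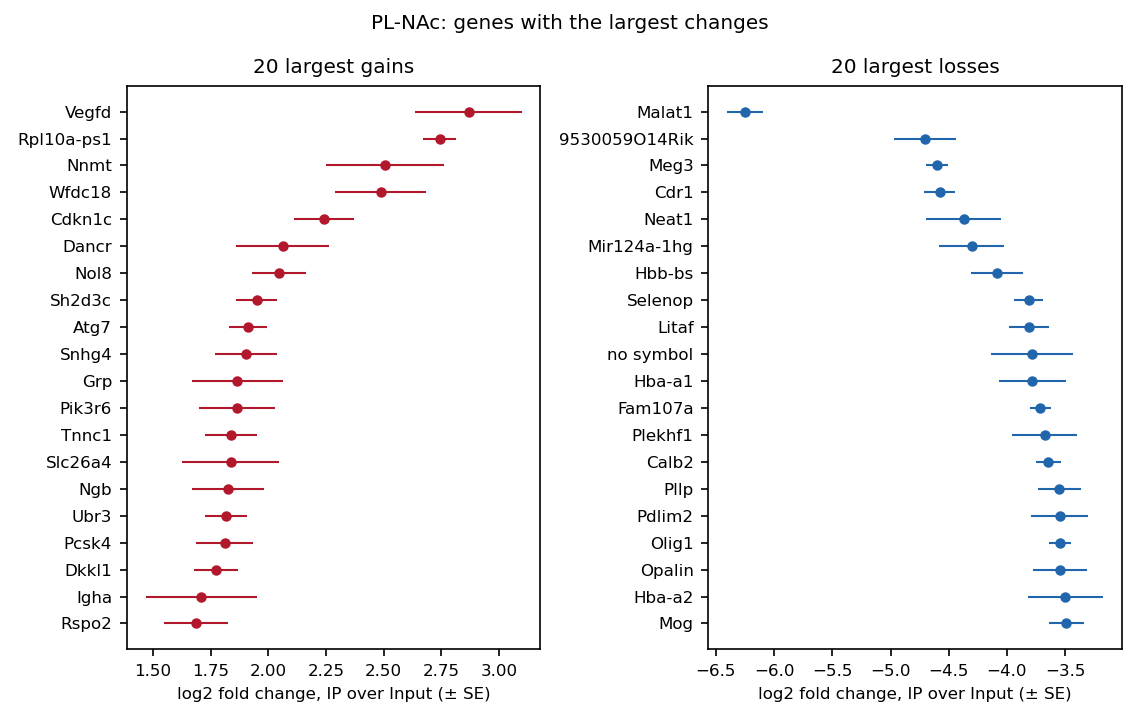
Log2 fold change of IP over Input with its standard error for the 20 genes with the largest gains (left, red) and the 20 with the largest losses outside the mitochondrial genome (right, blue). The gains run from 1.69 to 2.87 and the losses from -3.49 to -6.25, with standard errors of 0.069 to 0.35.

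Ranked by estimated counts in place of folds, the largest changes lay in other genes. The largest gain in estimated counts was that of Aldoa, a glycolytic enzyme, from 54469 in Input to 94656 in the IP (0.80 ± 0.056, authors' deposited table). Rtn1, a protein of the endoplasmic reticulum, went from 24356 to 45778, and Tubb2a, a beta-tubulin, from 11268 to 29727. Calm2, a gene of the calcium sensor calmodulin, rose by 0.39 ± 0.051 on the log2 scale in the authors' deposited table, and Vamp2, a synaptic vesicle fusion protein, by 0.51 ± 0.053. Hpcal4, a neuronal calcium sensor, went from 19879 to 33292, and Aplp1, a relative of the amyloid precursor, from 26309 to 44096. Hsp90ab1, a cytosolic chaperone, went from 21344 to 38725, and Stmn3, which binds free tubulin, from 13704 to 27174. Ndrg4 had the smallest fold of the 15 (0.26 ± 0.051, authors' deposited table) and, at 79465, the highest mean count over all libraries. Its estimated IP level, 86488, was below that of Aldoa. Gm38393, a predicted gene, was also among them (0.58 ± 0.062, authors' deposited table). At the deposited zero point the 10 largest gains made up 6.29% of all estimated counts gained, so that gain was spread over many genes.

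The losses were more concentrated, with 15.9% of all estimated counts lost in 10 genes. After Malat1 the largest was that of Fth1, the heavy chain of the iron store ferritin, from 42259 to 15647 estimated counts (-1.43 ± 0.066, authors' deposited table). Products of glia followed. Mbp fell to 15.1% of Input, Apoe, a lipid carrier of astrocytes, to 11.7% and Ptgds, which makes prostaglandin D, to 10.5%. Aldoc, the aldolase of astrocytes, fell from 23168 to 7689 while its paralog Aldoa rose. Several transcripts that neurons make in quantity were on the same list. Kif5a, a motor of axonal transport, fell to 31.3% of Input (-1.68 ± 0.061, authors' deposited table), and Nrsn1, a neuronal membrane protein, to 21.7% (-2.20 ± 0.056, authors' deposited table). Cplx1, a regulator of vesicle fusion, fell to 57.2% (-0.81 ± 0.066, authors' deposited table) and Ckb, the creatine kinase of brain, to 74.0% (-0.43 ± 0.063, authors' deposited table). The 9 mitochondrially encoded genes among the 12061 took 0.547% of estimated Input counts and 0.00535% of those in the IP. Of all 12061 genes mt-Cytb had the deepest loss (-7.11 ± 0.16, authors' deposited table).

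Which transcripts gained also varied with how abundant and how long they were. In the lowest decile of genes by mean count (50 to 91.8) the median log2 fold change was -0.28, with 7.5% of genes called higher and 35.4% lower. In the highest decile (means from 2731) it was 0.32, with 69.7% called higher and 12.1% lower. The median rose at each step in between. A low mean also widens the standard error, which had a median of 0.28 in the lowest decile and 0.066 in the highest, so fewer changes of a given size can be called there.

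Length went the opposite way. Lengths were those of the annotated mRNA with the longest coding part, for 11328 protein-coding genes. Among the shortest decile (276 to 1276 bases) 59.5% were called higher and 11.1% lower, with a median of 0.41. Among the longest decile (from 6537 bases) 11.9% were called higher and 37.1% lower, with a median of -0.19. The same order held among genes with a mean over 1000, where the median went from 0.52 in the shortest decile to 0.062 in the longest, with small departures between neighbouring deciles. Among genes with a mean up to 1000 it went from 0.32 to -0.26. Across genes the Spearman correlation with log2 fold change was -0.30 for mRNA length, -0.23 for coding length, -0.22 for 3′ UTR length and -0.066 for 5′ UTR length, and it was 0.37 for the mean count. Genes are not independent replicates, and all share the same 6 libraries. The shortest and longest deciles had medians of 0.26 and -0.20 in the amygdala projection (PL-BLA) and of 0.31 and -0.092 in the VTA projection (PL-VTA).

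**Figure D3:**
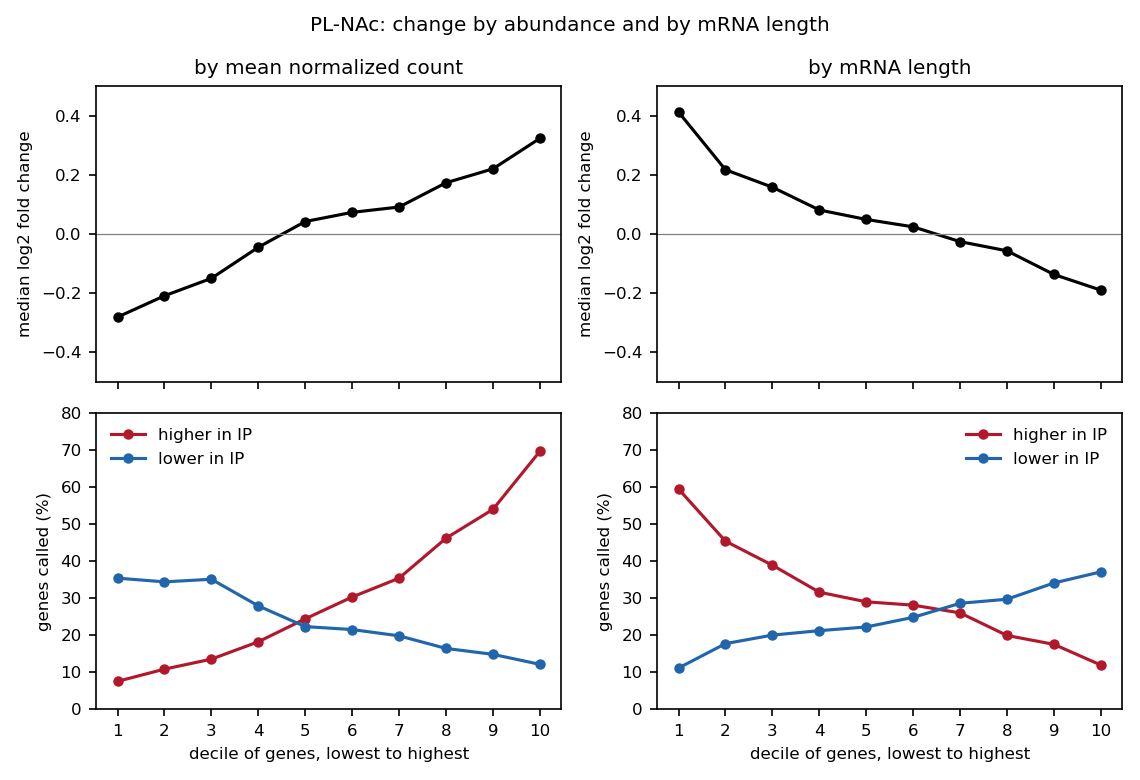
Median log2 fold change (top) and percent of genes called higher in red or lower in blue (bottom) in deciles of the genes ordered by mean normalized count (left, 12061 genes) and by mRNA length (right, 11328 protein-coding genes). The median goes up with the mean count, from -0.28 to 0.32, and down with length, from 0.41 to -0.19.

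Counts also varied with the class of gene. Processed pseudogenes, short copies of mRNAs without introns, were called higher in 174 of 386 cases and lower in 16, with a median of 0.37 that stood at -0.006 relative to genes of like length. Like length, here and below, refers to deciles of all annotated exonic bases of a gene, not to the mRNA length used above. Their reads may come from the parent gene, so each is uncertain. Long intergenic noncoding RNAs were called higher in 9 of 75 cases and lower in 24, with a median of -0.22 and a length-centred median of -0.39. Of 52 antisense genes 10 were higher and 12 lower, and unstranded counting cannot separate those that overlap their partner. Protein-coding genes had 3487 higher and 2793 lower of 11328, with a median of 0.049.

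To see what the gained and lost transcripts encode, 60 lists of gene families, complexes and pathways were counted. Each count stands beside the calls of the second centring, and each median beside that of all genes (0.059). Since length varied with the change, medians are also given after subtracting the median of genes of like length. That length is all annotated exonic bases of a gene, not the mRNA length of the deciles above. For Sept7, for example, these are 11631 and 2533 bases. Whether the trend with mRNA length was removed by this was not tested. The median of 422 predicted genes named Gm, for example, was 0.32 as deposited and -0.032 by length. A list with calls near 31.0% higher and 24.0% lower is near the background. That background shifts with mean count. In the lowest decile 7.5% of all genes were higher and 35.4% lower, and in the highest 69.7% and 12.1%. List medians were not centred on mean count. Of the 60 medians, 28 were above that of all genes and 31 below.

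**Figure D4:**
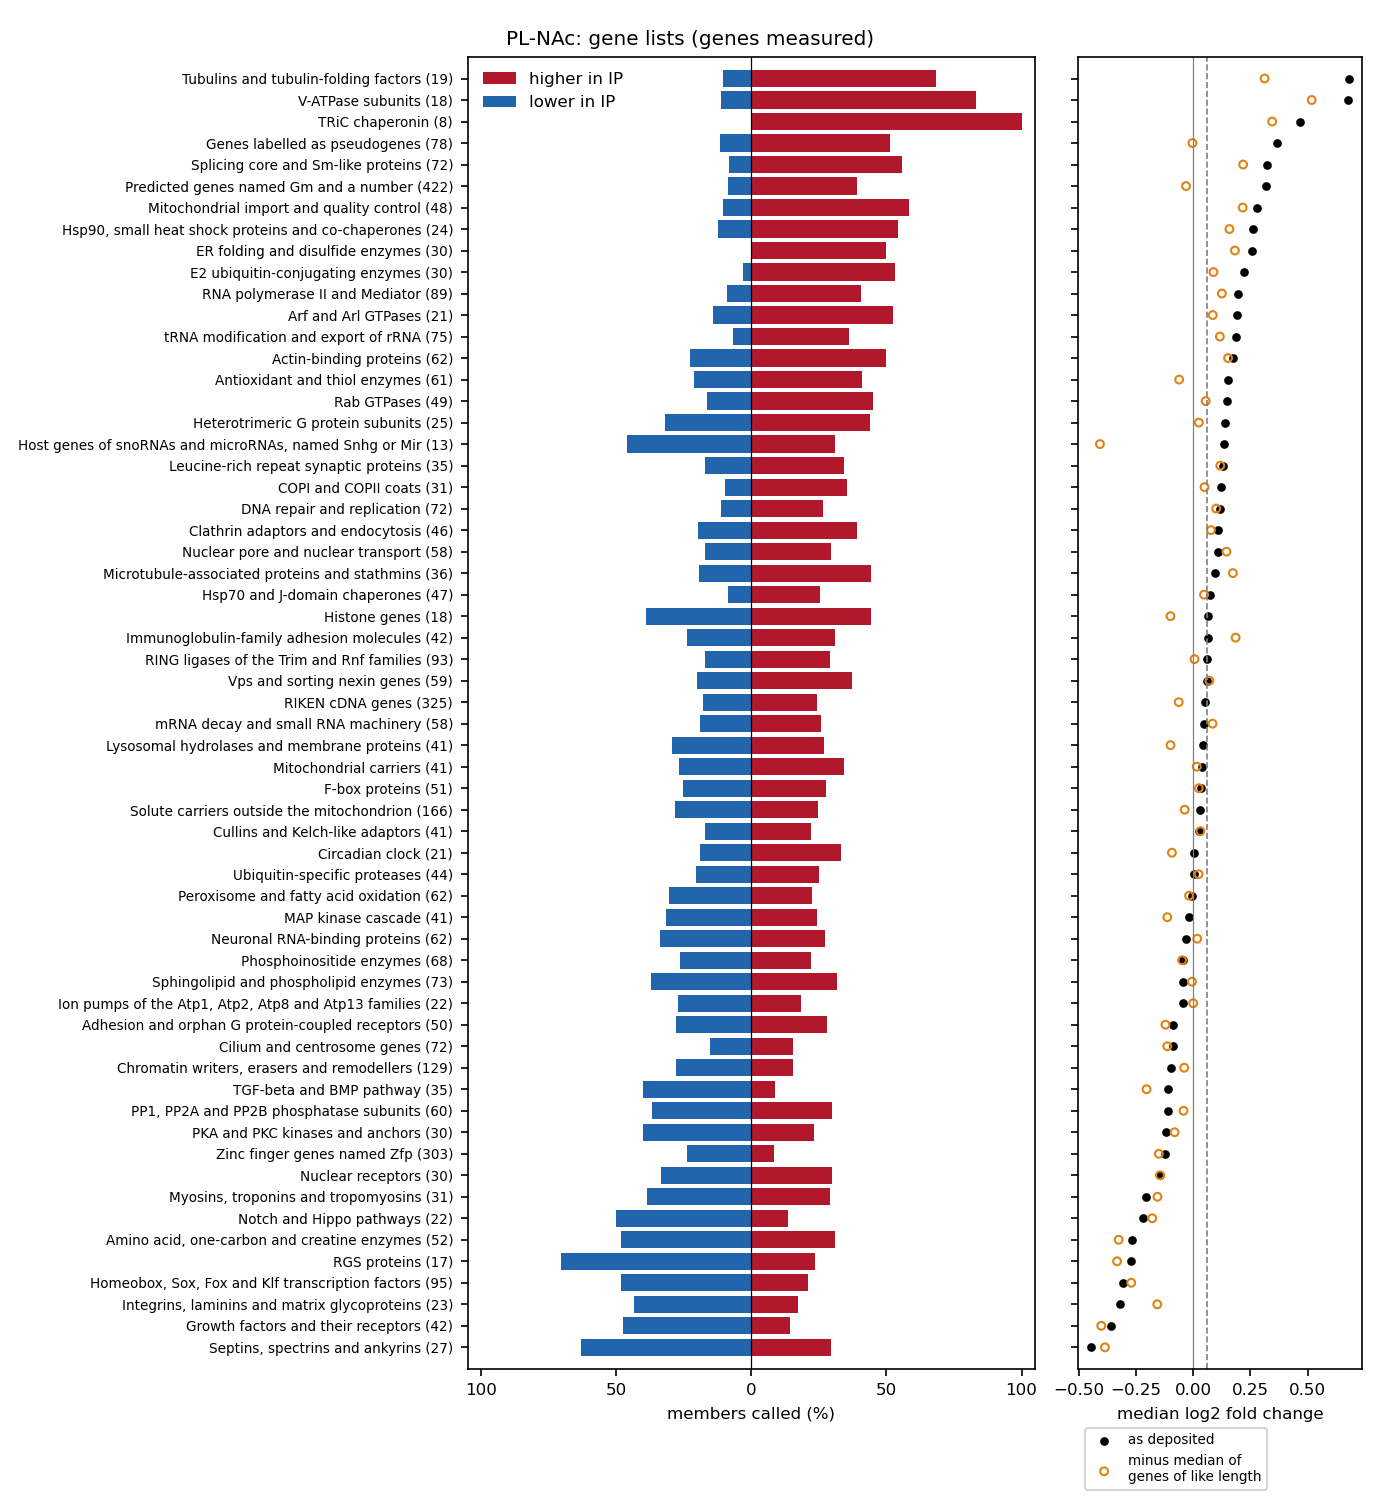
Left, percent of measured members of each of the 60 lists called higher (red, to the right) or lower (blue, to the left), with the number measured in brackets. Right, the list's median log2 fold change as deposited (filled) and after subtracting the median of genes of like exonic length (open). A dashed line marks the median of all genes (0.059). Tubulins, V-ATPase subunits and the TRiC chaperonin are at the top, and septins, spectrins and ankyrins at the bottom.

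Most genes of the proton pump of vesicles and lysosomes gained. The V-ATPase acidifies synaptic vesicles, so that transmitter can be loaded, and also lysosomes. Of its 18 measured genes 15 were called higher and 2 lower (14 and 2 in the second centring), with a median of 0.68, and of 0.52 relative to genes of like length. The list is of abundant genes, with a median mean count of 6890 and 83.3% higher. In the highest decile of all genes by mean count 69.7% were higher, with a median of 0.32. Atp6v0c, the ring subunit that carries protons, rose 2.33-fold (1.22 ± 0.071, authors' deposited table), and Atp6v1a, the catalytic subunit, 1.69-fold (0.75 ± 0.056, authors' deposited table). Atp6v0b, another ring subunit, rose 1.78-fold (0.83 ± 0.066, authors' deposited table). The exceptions were paralogs of gained subunits. Atp6v0e fell to 39.5% of Input (-1.34 ± 0.14, authors' deposited table) while Atp6v0e2, its close relative, rose 1.79-fold (0.84 ± 0.059, authors' deposited table). Atp6v0a2 was lower (-0.43 ± 0.13, authors' deposited table), and Atp6v1g1 was not called (0.18 ± 0.085, authors' deposited table).

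Because these genes moved together, their promoters were searched for CACGTG, the E-box at the core of the element through which lysosomal genes are known to be activated. The sequence reads the same on both strands. In RefSeq windows of build GRCm38.p6 covering the 250 bases before a gene's start, it was present in 2 of the 13 V-ATPase windows matched by symbol (15.4%) and in 8.74% of 9011 windows of genes measured here. A match is a description of the letters in this window. The windows with a match are shown 5′ to 3′ on the gene's strand with CACGTG in capitals. They lie at chr4:117887330-117887579 on the minus strand and chr16:44139260-44139509 on the minus strand.
Atp6v0b: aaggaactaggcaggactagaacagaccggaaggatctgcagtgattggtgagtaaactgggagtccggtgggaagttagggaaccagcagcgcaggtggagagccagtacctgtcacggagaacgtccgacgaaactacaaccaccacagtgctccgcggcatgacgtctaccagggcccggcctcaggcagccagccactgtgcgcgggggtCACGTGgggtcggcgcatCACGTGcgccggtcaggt
Atp6v1a: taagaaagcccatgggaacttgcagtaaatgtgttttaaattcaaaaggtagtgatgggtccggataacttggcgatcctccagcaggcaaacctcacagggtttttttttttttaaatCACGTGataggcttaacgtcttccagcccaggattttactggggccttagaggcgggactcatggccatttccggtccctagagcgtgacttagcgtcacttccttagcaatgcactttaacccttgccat

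Tubulins and the machinery that folds them also gained. Of 19 measured tubulin and tubulin-folding genes 13 were higher and 2 lower (11 and 4 in the second centring), with a median of 0.68 and a length-centred median of 0.31. Tubb2a rose 2.64-fold (1.40 ± 0.056, authors' deposited table), Tubb5 2.50-fold (1.32 ± 0.057, authors' deposited table) and Tuba1a, an alpha-tubulin, 2.36-fold (1.24 ± 0.055, authors' deposited table). Tuba8 and Tubb6 fell (-0.75 ± 0.11 and -1.40 ± 0.25, authors' deposited table). All 8 subunits of TRiC, the chaperonin that folds actin and tubulin, were called higher (7 higher and none lower in the second centring). Their median was 0.47, and 0.35 relative to genes of like length, and Cct6a (0.51 ± 0.063, authors' deposited table) and Cct8 (0.47 ± 0.059, authors' deposited table) had the highest test scores. Stmn1 and Stmn2, which like Stmn3 sequester tubulin, rose by 1.13 ± 0.064 and 0.75 ± 0.057 in the authors' deposited table. Proteins that coat microtubules were among the losses. Map2, of dendrites, fell to 43.5% of Input (-1.20 ± 0.074, authors' deposited table), Map1a to 56.2% (-0.83 ± 0.073, authors' deposited table) and Dcx, of young neurons, to 23.2% (-2.10 ± 0.21, authors' deposited table), while Map1b was not called (0.14 ± 0.064, authors' deposited table). On that list of 36 genes 16 were higher and 7 lower, but 9 higher and 17 lower in the second centring.

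Genes of the membrane skeleton were mostly lower. Of 27 septins, spectrins, ankyrins and their adaptors 17 were lower and 8 higher (18 and 3 in the second centring), with a median of -0.45 that stayed at -0.39 relative to genes of like length. The markers of astrocytes and oligodendrocytes, at 26.6% and 13.7% of Input, were lower too, and their part in this loss was not tested. Spectrin tetramers line the inside of the axon membrane. Sptan1, their alpha chain, fell to 39.6% of Input (-1.34 ± 0.097, authors' deposited table) and Sptbn1, a beta chain, to 40.9% (-1.29 ± 0.11, authors' deposited table). Sept4, a septin, fell to 42.9% (-1.22 ± 0.082, authors' deposited table). Septins were divided, and Sept7 (0.48 ± 0.063), Sept9 (0.56 ± 0.089) and Sept5 (0.38 ± 0.061) were higher in the authors' deposited table. Add1, an adducin that caps actin at spectrin junctions, was not called (0.074 ± 0.057, authors' deposited table) and was called lower in the second centring (-0.17). Among 62 actin-binding genes 31 were higher and 14 lower, and 20 and 23 in the second centring. Arpc3, of the actin-branching complex, and Cfl1, which severs actin, rose (0.89 ± 0.074 and 0.73 ± 0.061, authors' deposited table), while Arpc1b, another subunit of that complex, fell (-2.67 ± 0.19, authors' deposited table), as did Gsn, which caps actin (-1.05 ± 0.098, authors' deposited table).

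**Figure D5:**
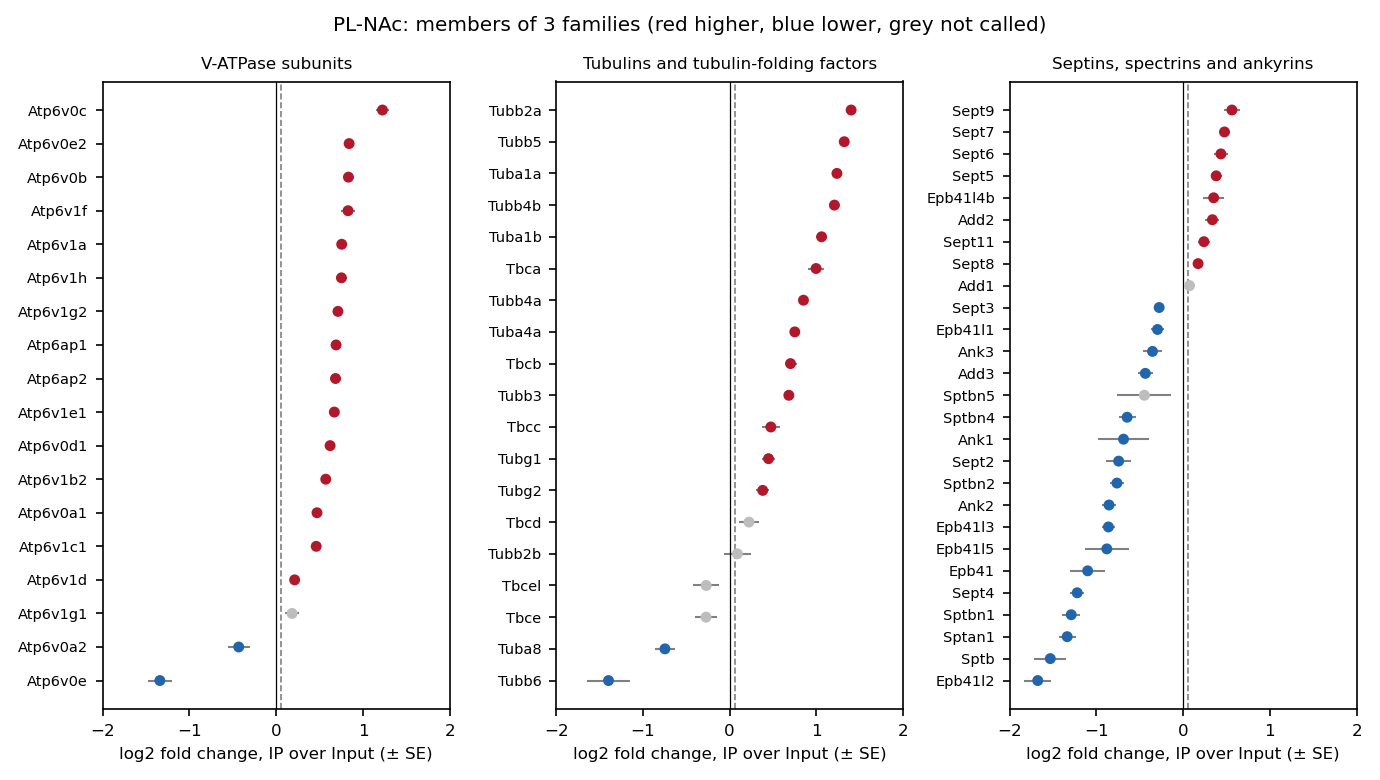
Log2 fold change of IP over Input with its standard error for each measured V-ATPase gene (left), tubulin or tubulin-folding gene (middle) and septin, spectrin, ankyrin or adaptor gene (right), with a dashed line at the median of all genes (0.059). In the left and middle panels 15 of 18 and 13 of 19 genes are red (higher), and in the right panel 17 of 27 are blue (lower).

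Besides TRiC, machinery for making and folding proteins and for splicing leaned toward gain in the deposited values. Of the 5 lists that follow, only that of the endoplasmic reticulum still had more genes higher than lower in the second centring. Of 72 core splicing genes 40 were higher and 6 lower, evenly split at 19 and 19 in the second centring, with a median of 0.32 and a length-centred median of 0.22. Their share higher, 55.6% at a median mean count of 750, was above the 35.4% of all genes from 696 to 1000 counts. Prpf8, the central protein of the spliceosome, rose 2.87-fold (1.52 ± 0.098, authors' deposited table). The Sm ring proteins Snrpb and Snrpd3, which bind small nuclear RNAs, rose by 1.17 ± 0.076 and 0.73 ± 0.086 in the authors' deposited table. Clk1, a kinase of splicing factors, fell (-0.95 ± 0.12, authors' deposited table). Of 30 genes of endoplasmic reticulum translocation and folding 15 were higher and none lower, with 9 higher and 7 lower in the second centring. Their median mean count was 1358. Among all genes from 1000 to 1528 counts 46.2% were higher and 16.4% lower. The list's share higher was near that background, and its share lower was below it. Srp14 of the signal recognition particle rose 1.96-fold (0.97 ± 0.071, authors' deposited table), and the lectin chaperone Canx was not called (0.050 ± 0.077, authors' deposited table) and was called lower in the second centring (-0.19). Of 24 genes for Hsp90, small heat shock proteins and their partners 13 were higher and 3 lower, and 5 and 6 in the second centring. Their shares, 54.2% higher and 12.5% lower at a median mean count of 1242, were near the same 46.2% and 16.4%. Hsp90aa1 rose (0.76 ± 0.065, authors' deposited table), while the stress-linked partners Bag3 and Hspb8 fell (-2.10 ± 0.30 and -1.99 ± 0.20, authors' deposited table). Ubiquitin-conjugating enzymes had 16 of 30 higher and 1 lower, a balance that turned to 3 higher and 11 lower in the second centring. Their share higher, 53.3% at a median mean count of 1605, was near the 54.0% of all genes from 1529 to 2730 counts. Of 75 genes for tRNA modification and ribosome biogenesis 27 were higher and 5 lower, and 13 and 15 in the second centring. At a median mean count of 507, 36.0% were higher and 6.7% lower. Among all genes from 488 to 696 counts these shares were 30.3% and 21.5%, so the difference lay mainly in the share lower. Nop10 and Nhp2, which share a particle that modifies ribosomal RNA, rose by 1.16 ± 0.072 and 1.01 ± 0.083 in the authors' deposited table, whereas nucleolin, Ncl, fell (-0.54 ± 0.073, authors' deposited table).

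Nuclear-encoded genes of mitochondrial import and quality control were more often higher than lower, unlike the mitochondrial genome's own RNAs, but their shares were near those of equally abundant genes. Of 48, 28 were higher and 5 lower (16 and 8 in the second centring), with a median of 0.28 and a length-centred median of 0.22. Their median mean count was 1638, with 58.3% higher and 10.4% lower. Among all genes from 1529 to 2730 counts 54.0% were higher and 14.8% lower, with a median of 0.22. Timm8b, a chaperone of the intermembrane space, rose 1.85-fold (0.89 ± 0.079, authors' deposited table) and Chchd6, a cristae organizer, 1.84-fold (0.88 ± 0.068, authors' deposited table). Mfn1, which fuses outer membranes, fell (-0.82 ± 0.11, authors' deposited table). Mitochondrial carriers had 14 of 41 higher and 11 lower (7 and 18 in the second centring), close to the shares of all genes, and the paralogs that import glutamate parted: Slc25a22 rose (0.95 ± 0.057, authors' deposited table) and Slc25a18 fell (-1.86 ± 0.13, authors' deposited table).

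Regulators of G protein signalling were lower more often than higher. Of 17 such genes 12 were lower and 4 higher (12 and 2 in the second centring), with a median of -0.27 and a length-centred median of -0.33. Astrocyte, oligodendrocyte and microglial markers, at 26.6%, 13.7% and 21.2% of Input, were also lower, and their part in this was not tested. Rgs10 (-1.42 ± 0.15) and Rgs3 (-1.47 ± 0.22) fell and Rgs19 (0.59 ± 0.097) and Rgs14 (0.42 ± 0.073) rose in the authors' deposited table. Of 25 subunits of heterotrimeric G proteins 11 were higher and 8 lower, and 6 and 12 in the second centring. The alpha subunits Gna12 and Gna13 fell to 25.9% and 33.6% of Input, while Gnaz, an inhibitory alpha subunit, and Gng3, a gamma subunit, rose 1.57-fold and 1.74-fold.

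Growth factor, BMP and Notch genes were more often lower than higher, and so were developmental transcription factors. Of 42 growth factors and receptors 20 were lower and 6 higher (26 and 3 in the second centring), with a median of -0.36 and a length-centred median of -0.40. The receptor Fgfr3 fell (-3.32 ± 0.14, authors' deposited table), its relative Fgfr2 fell to 17.6% of Input, and the ligand Fgf1 to 17.5%. Pdgfb, a ligand of platelet-derived growth factor receptors, rose (0.70 ± 0.11, authors' deposited table). Of 35 TGF-beta and BMP genes 14 were lower and 3 higher (20 and 3 in the second centring); the ligand Bmp7 fell to 20.7% of Input, while Bmp3 and Bmp2 rose by 1.11 ± 0.20 and 1.01 ± 0.21 in the authors' deposited table. Of 22 Notch and Hippo genes 11 were lower and 3 higher (13 and 3 in the second centring). Heyl (-3.08 ± 0.31) and Hes5 (-1.82 ± 0.19), targets of Notch, fell in the authors' deposited table. Hes6, a relative known to oppose Hes1, rose (0.86 ± 0.11, authors' deposited table). Of 95 homeobox, Sox, Fox, Klf and related factors 46 were lower and 20 higher (61 and 7 in the second centring), with a median of -0.31 and a length-centred median of -0.27. Sox10, of oligodendrocytes, fell to 11.9% of Input, and Id3 and Id4, inhibitors of helix-loop-helix factors, to 9.31% and 25.6%. Foxo6, a forkhead factor of the forebrain, rose 2.75-fold (1.46 ± 0.11, authors' deposited table). Egr4, an activity-linked zinc finger factor, rose 1.92-fold (0.94 ± 0.079, authors' deposited table). The levels of astrocyte, oligodendrocyte and microglial markers, at 26.6%, 13.7% and 21.2% of Input, moved with these losses and with those of the zinc finger, chromatin, enzyme, carrier and matrix genes described next, and their part in them was not tested.

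Zinc finger genes named Zfp and chromatin regulators showed small shifts in the same direction. Of 303 Zfp genes 72 were lower and 25 higher (144 and 15 in the second centring), with a median of -0.12, a length-centred median of -0.15 and a median mean count of 251. The 24.0% of all genes called lower is close to their share, 23.8%, and the difference lay in the share called higher, 8.3%. In the decile of all genes from 236 to 345 counts, 18.2% were higher and 27.9% lower. Of 129 chromatin genes 36 were lower and 20 higher (73 and 7 in the second centring), with a median of -0.10 that stood at -0.04 relative to genes of like length. Dnmt3a, which methylates DNA anew, fell to 52.0% of Input (-0.94 ± 0.11, authors' deposited table), as did Tet2, which oxidizes methyl groups, to 34.9% (-1.52 ± 0.18, authors' deposited table), and the histone methyltransferase Kmt2d to 40.6% (-1.30 ± 0.16, authors' deposited table). Brd9, a reader of acetylated histones, rose (0.71 ± 0.085, authors' deposited table). Of 72 DNA repair and replication genes 19 were higher and 8 lower, and 7 and 15 in the second centring. The replicative helicase subunits Mcm5 and Mcm6 rose 3.03-fold and 2.76-fold (1.60 ± 0.15 and 1.47 ± 0.16, authors' deposited table), and the sliding clamp Pcna rose 1.58-fold (0.66 ± 0.12, authors' deposited table).

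Amino acid enzymes were more often lower than higher, and antioxidant enzymes were divided. Of 52 amino acid, one-carbon and creatine genes 25 were lower and 16 higher (28 and 5 in the second centring), with a median of -0.27 and a length-centred median of -0.33. Glul, the glutamine synthetase of astrocytes, fell to 32.8% of Input (-1.61 ± 0.085, authors' deposited table), Gatm, of creatine synthesis, to 24.0% (-2.06 ± 0.082, authors' deposited table), and Psat1, of serine synthesis, to 44.1% (-1.18 ± 0.084, authors' deposited table). Srm, of spermidine synthesis, and Asns, of asparagine synthesis, rose (0.59 ± 0.072 and 0.46 ± 0.067, authors' deposited table). Of 61 antioxidant and thiol enzymes 25 were higher and 13 lower, and 13 and 23 in the second centring, and their median of 0.15 stood at -0.062 relative to genes of like length. Txn1, thioredoxin, rose 2.15-fold, Prdx2 1.57-fold and Prdx5 1.54-fold, whereas Prdx6, the peroxiredoxin of astrocytes, fell to 29.7% and the metallothionein Mt2 to 16.6% of Input. Mt3, the metallothionein that neurons also make, was not called (-0.069 ± 0.17, authors' deposited table).

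Surface proteins and carriers showed no common direction in the deposited values. In the second centring each of their lists had more genes lower than higher. Of 166 solute carriers outside the mitochondrion 41 were higher and 47 lower (24 and 70 in the second centring), with a median of 0.027 and a length-centred median of -0.038. Slc7a8, a carrier of neutral amino acids, rose 2.24-fold, and the glutamate carrier of astrocytes Slc1a3 fell to 25.4% of Input. Of 22 P-type pumps 4 were higher and 6 lower (3 and 13 in the second centring). Of 35 leucine-rich repeat synaptic proteins 12 were higher and 6 lower, and 5 and 14 in the second centring. Lingo1 and Rtn4r, partners in the receptor that halts axon growth on myelin, rose by 0.78 ± 0.065 and 0.65 ± 0.093 in the authors' deposited table, as did Rtn4rl2, a relative of Rtn4r (1.12 ± 0.092, authors' deposited table). Of 42 immunoglobulin-family adhesion molecules 13 were higher and 10 lower (8 and 14 in the second centring); Cadm1 rose (0.97 ± 0.067, authors' deposited table) and Igsf11 fell (-1.97 ± 0.26, authors' deposited table). Integrins, laminins and matrix glycoproteins had 10 of 23 lower and 4 higher (13 and 1 in the second centring). Their median of -0.32 stood at -0.16 relative to genes of like length. At a median mean count of 200, 43.5% were lower and 17.4% higher, against 35.1% and 13.5% of all genes from 152 to 236 counts. Sparc, a secreted matrix protein, stood at 16.2% of Input.

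Host transcripts of microRNAs and snoRNAs were divided. Of 13 measured, 6 were lower and 4 higher (6 and 3 in the second centring). Snhg11 fell to 10.7% of Input (-3.23 ± 0.089, authors' deposited table) and Gas5 to 64.0% (-0.64 ± 0.12, authors' deposited table), while Snhg4 and Snhg20 rose 3.74-fold and 1.73-fold. The microRNA hosts Mir9-3hg and Mir670hg were lower (-0.51 ± 0.11 and -1.21 ± 0.30, authors' deposited table), and Mir22hg was higher (0.40 ± 0.10, authors' deposited table). These hosts span the following mature microRNAs on their own strand, from RefSeq on build GRCm38.p6, with the seed (bases 2 to 8) in capitals. The mature microRNAs themselves were not measured in these libraries, so the sequences only identify what each host carries, and no seed is shared between the 5 shown.
miR-9-5p (in Mir9-3hg): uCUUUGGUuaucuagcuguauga
miR-9-3p (in Mir9-3hg): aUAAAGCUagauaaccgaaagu
miR-670-5p (in Mir670hg): aUCCCUGAguguauguggugaa
miR-129-5p (in Mir670hg): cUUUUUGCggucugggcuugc
miR-22-3p (in Mir22hg): aAGCUGCCaguugaagaacugu

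The 40 genes with the largest gains and losses were compared with the other projections by a two-sided Wald z on the difference of log2 fold changes, with Benjamini-Hochberg adjustment over all genes in both tables. These genes were chosen for their size in PL-NAc, which favours differences toward smaller changes elsewhere, so the counts are a description. All 40 had the same direction in PL-BLA, and 7 differed at an adjusted p under 0.05, each with the lower value in PL-NAc. In PL-VTA 33 of 40 had the same direction and 16 differed, 10 with the higher value in PL-NAc and 6 with the lower.

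Against PL-BLA, Atg7 gained less in PL-NAc, at 1.91 ± 0.083 against 2.77 ± 0.10 in the authors' deposited tables (difference -0.86 ± 0.13, adjusted p 1.2e-07). Igha also gained less, at 1.71 ± 0.24 against 4.61 ± 0.29 in the authors' deposited tables (difference -2.90 ± 0.38, adjusted p 6.5e-11). Calb2 was lost more deeply in PL-NAc, at -3.64 ± 0.11 against -2.46 ± 0.13 in the authors' deposited tables (difference -1.19 ± 0.17, adjusted p 7e-09). Olig1 and Fam107a were also lost more deeply, by differences of -0.90 ± 0.14 (adjusted p 3.2e-07) and -0.75 ± 0.13 (adjusted p 8.7e-06). Against PL-VTA, Tnnc1 and Cdkn1c had the opposite sign. Tnnc1 stood at 1.84 ± 0.11 in PL-NAc and at -2.48 ± 0.33 in PL-VTA in the authors' deposited tables (difference 4.32 ± 0.35, adjusted p 6.5e-31), and Cdkn1c at 2.24 ± 0.13 and -1.26 ± 0.35 (difference 3.50 ± 0.37, adjusted p 6e-18). Dkkl1 and Pcsk4, both gained in PL-NAc, lay at -0.05 ± 0.24 and -0.01 ± 0.27 in PL-VTA in the authors' deposited tables (differences 1.82 ± 0.26, adjusted p 2e-09, and 1.82 ± 0.30, adjusted p 2.2e-07). Cdr1 was lost in both, at -4.58 ± 0.13 in PL-NAc and -1.53 ± 0.45 in PL-VTA in the authors' deposited tables (difference -3.04 ± 0.47, adjusted p 2.7e-08). PL-VTA rests on 2 IP and 2 Input libraries, and its standard errors are wider. The deposited folds appear shrunken, and whether they were shrunken to the same degree in each projection was not tested.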

How the data were processed

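RNA was measured in 3 IP and 3 Input libraries of PL-NAc. The submitters' processing notes name STAR 2.3, featureCounts and DESeq2, and builds mm10 and GRCm38. Annotation release, strand setting, filters and model formula were not given in the sources used here. Each gene's mean signal is its normalized count averaged by the authors over the 6 libraries, per the file headers. Log2 fold changes with their standard errors were deposited by the authors. Values of genes with few reads lie near 0, so these folds appear shrunken and understate changes of scarce genes. The direction was read as IP over Input because glial and mitochondrial transcripts are negative. The Wald score and the p-value, raw and adjusted (Benjamini-Hochberg), were deposited by the authors, and calls rest on them. The summed mean counts were 15437849 in the average library, and depth per library is unknown here.

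From the table, computed with Python 3.11.15, pandas 2.3.3 and scipy 1.17.1, came group levels (Input is 2 times the mean over 1 plus the fold, and IP is Input times the fold), deciles, list counts and differences between projections. The difference test and adjustment were run on simulated fold changes with normal noise of the deposited standard errors. The simulation held no shrinkage, so it cannot show how shrunken folds affect the test. Symbols came from the files, and 11975 of the 12061 identifiers were found in GENCODE M21 (GRCm38), used for class, length and overlaps. Lists were matched by symbol pattern, and the patterns were tidied after values were seen. The genes, lists and comparisons were chosen with earlier results of these data known.

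Named genes were the 20 largest gains and losses, the 15 largest gains and losses in estimated counts, in each list up to 3 called in each direction and 2 not called, the 5 that differ most from each other projection, and the markers. Some genes and lists under this rule are not reported here. Atp6v0b and the hosts of the microRNAs shown were chosen after their values were seen. Alternatives were other minimum means, other thresholds, centring, adjustment over these genes alone, a test against a log2 fold change of 0.5 and, chosen after seeing the data, undoing the shrinkage and centring on length.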

Additional observations from a re-analysis of the deposited data

Results flagged for a closer look

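Results are listed here because the change in PL-NAc differed from that in another projection by a test of the difference itself, a two-sided Wald z with Benjamini-Hochberg adjustment. They are the 5 genes with the smallest p for each projection among the 40 genes of largest change, so they were picked for differing. Against PL-BLA the log2 fold change in PL-NAc was lower by these differences: Atg7 at -0.86, Calb2 at -1.19, Fam107a at -0.75, Igha at -2.90 and Olig1 at -0.90. Against PL-VTA the difference was 3.50 for Cdkn1c, -3.04 for Cdr1, 1.82 for Dkkl1, 1.82 for Pcsk4 and 4.32 for Tnnc1.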

How the results depend on the processing

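The counts of called genes moved with where 0 was set and with the minimum mean. Centred on genes with a mean over 1000, 1863 genes were higher, 4879 lower and 84 at least 2-fold higher, against 3738, 2891 and 230. A test against a log2 fold change of 0.5 left 569 higher and 1124 lower. With a minimum mean of 200, 1795 genes were lower and 420 at least 2-fold lower. The latter count was 1744 with a minimum mean of 10 and 1927 with none, against 1039. With the shrinkage undone, an alternative chosen after seeing the data, 384 genes were at least 2-fold higher. In each case the construction changes the zero point, the hurdle or the genes counted. The counts over all genes, with and without the 2-fold limit, stayed within 1.5 times under an adjusted p of 0.01, adjustment over these genes alone and centring on their median. Of the 120 list counts, 8 moved by more at an adjusted p of 0.01, among them DNA repair lower from 8 to 4, splicing lower from 6 to 3, amino acid enzymes higher from 16 to 10 and Zfp genes lower from 72 to 47. Centring on the median of all genes moved 3, and centring on genes with a mean over 1000 moved 88. A minimum mean of 200 moved 28, and the test against a log2 fold change of 0.5 moved 113. Under that test TRiC went from 8 higher to 0 and ubiquitin-conjugating enzymes from 16 to 0. Of the lists, 35 had more genes higher than lower, and 26 of these had more lower than higher when centred on genes with a mean over 1000. No gene called higher or lower and named in the report changed direction under the alternatives run on single genes. Of the named genes not called, Add1 and Canx were called lower under that centring, at -0.17 and -0.19, and Map1b and Atp6v1g1 turned negative without a call, at -0.099 and -0.06. Canx also turned negative when centred on the median of all genes. Map1b was called when adjusted over these genes alone. Under the centring on genes with a mean over 1000, Mir22hg, Ndrg4, Sept5 and Sst were no longer called, and Sst was also not called at an adjusted p under 0.01 or when centred on the median of all genes. The test against 0.5 kept all named genes but 30 on their side. Shrunken folds limit what scarce genes can show. No paired analysis was possible because the deposited table holds no value per library, so no library could be left out either.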
